A study of Homo sapiens with 4 samples.

Results

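The 37 genes described here encode the machinery that carries glucose carbon through glycolysis to pyruvate and lactate, controls pyruvate entry into mitochondria and feeds the pentose phosphate pathway. They were chosen by name, and each symbol matched a row among the 57815 genes of the deposited expression table. Expression was measured by RNA-Seq in MDA-MB-231 and LM2-4175 cells, from 4 libraries, 2 of each cell line. MDA-MB-231 is a human triple-negative breast cancer cell line. LM2-4175 was isolated from it and metastasizes to lung with greater aggressiveness. Both cell lines were untreated and grew in DMEM with FBS, so the values describe cultured cells and not cells growing in a lung. The table gives 1 FPKM value per gene and cell line (fragments per kilobase of transcript, scaled to sequencing depth), in which both libraries are pooled, with a lower and an upper bound. No value per library was examined, no replicate error could be given, and the table does not give the sequencing depth.

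Glycolysis splits glucose into pyruvate and yields a little ATP, and lactate dehydrogenase turns pyruvate into lactate, which leaves the cell through monocarboxylate transporters. Many tumour cells run this route even when oxygen is present, and several of its genes are classical targets of hypoxia-inducible factor. The pentose phosphate pathway branches off at glucose 6-phosphate and supplies NADPH and ribose for nucleotides. Pyruvate dehydrogenase, which is held back by the PDH kinases, sends pyruvate into the citric acid cycle instead.

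Most of these genes had somewhat lower expression in LM2-4175 than their values in MDA-MB-231. The glucose transporter SLC2A1 fell 1.90-fold and the pentose phosphate enzyme TKT fell 1.80-fold. The hexokinase HK1 was listed 1.77-fold higher, with bounds that overlapped between the cell lines. The highest glycolytic genes, GAPDH, ENO1, LDHA and PKM, stayed near the top of the expression ranking in both. A gene was tested where its mean was at least 0.5 FPKM and the authors' status was OK in both cell lines. It was called where FPKM + 1 differed at least 1.5-fold and the bounds of the cell lines did not overlap. Log2 changes are on the scale of FPKM + 1, which understates the change of low genes, and folds are ratios of FPKM. Since the libraries are pooled, such a call sets 2 pools against each other and has no replicate behind it.

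Of the 37 genes, 36 were tested and SLC16A1 was too low. Expression was lower in LM2-4175 for 25 genes (69.4%) and higher for 11, and 54.5% of all genes tested were lower. The bounds of the cell lines overlapped for all of the pathway genes but SLC2A1 and TKT. SLC2A1 and TKT were called lower and 0 genes were called higher, so 5.56% of the tested pathway genes were called. Across all 13911 genes tested, 9.27% were called, 4.61% lower and 4.67% higher. The share of the pathway, all of it lower, was thus below that for both directions and close to that for lower genes. On the scale of FPKM + 1, the fold of 1.5 was reached by 7 pathway genes (19.4%) and by 22.1% of all genes tested. For 5 of these 7, HK1, PFKL, ALDOC, PDK3 and PDHA1, the bounds overlapped. The median log2 change was -0.29 over the pathway genes and -0.04 over all genes tested.

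**Figure D1:**
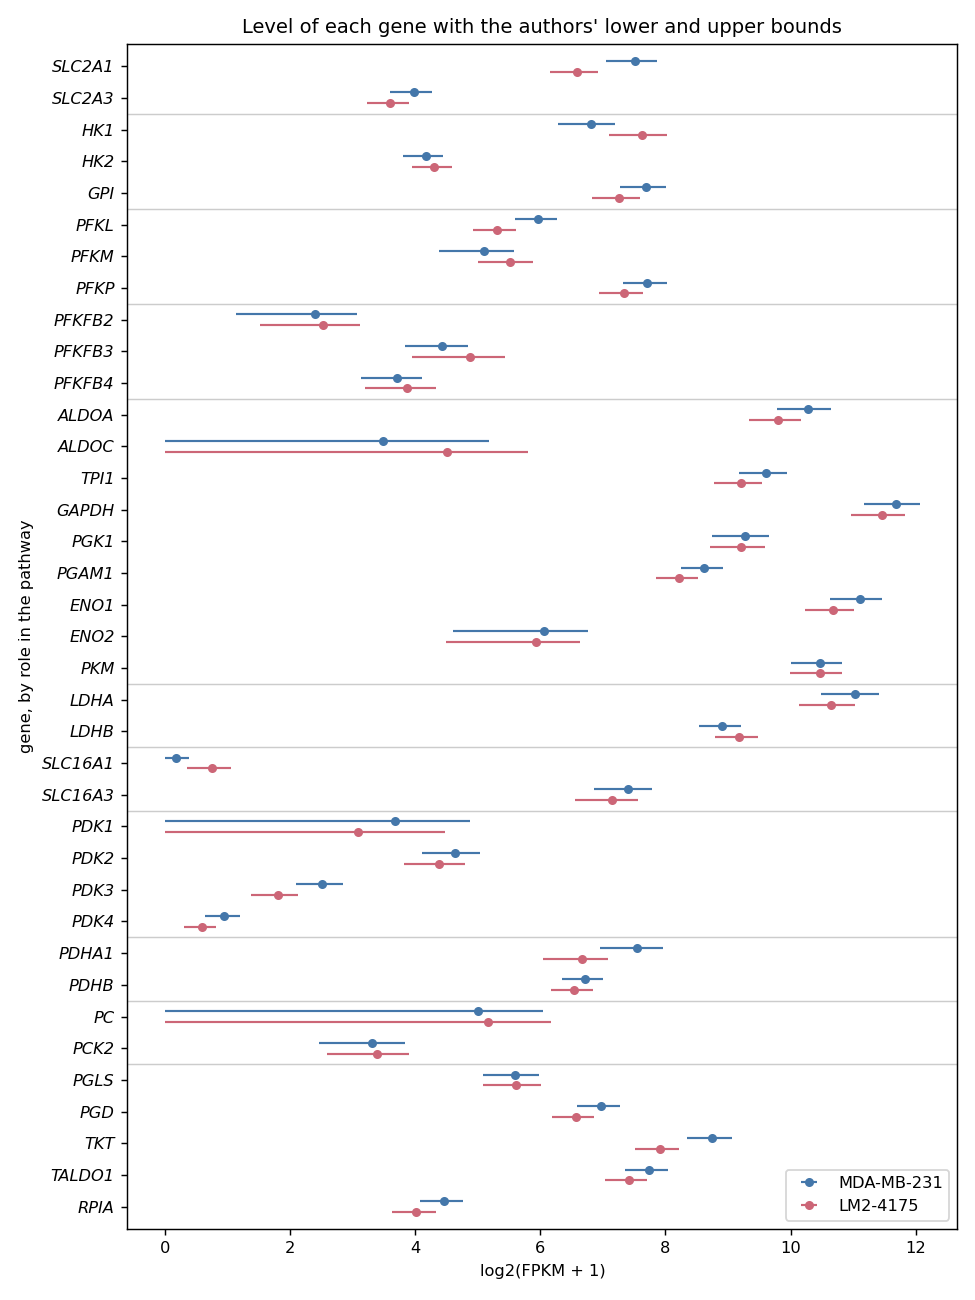
Expression of the 37 genes in MDA-MB-231 (blue) and LM2-4175 (red) as log2(FPKM + 1), grouped by role, with lines from the authors' lower to upper bound and both libraries of a cell line pooled in each point. The lines of SLC2A1 and TKT do not overlap between the cell lines. Those of ALDOC, PDK1 and PC reach down to 0 in both cell lines, and that of SLC16A1 does so in MDA-MB-231.

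Levels spanned a wide range. In MDA-MB-231 they ran from 0.131 FPKM for SLC16A1 to 3301 FPKM for GAPDH, and in LM2-4175 from 0.50 FPKM for PDK4 to 2814 FPKM for GAPDH. Together the genes held 2.35% of all FPKM in MDA-MB-231 and 2.05% in LM2-4175. Their sum was 14844 FPKM in MDA-MB-231 and 12256 FPKM in LM2-4175, which is 17.4% less. In each cell line 5 of the genes ranked among the 100 highest genes tested. The lower share of the sum came mainly from the abundant enzymes of lower glycolysis, and none of these was called.

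Promoter sequences are shown for the called genes SLC2A1 and TKT and, next to them, for LDHA, a textbook target of hypoxia-inducible factor. RefSeq (GRCh38.p14) was the source, and each stretch holds the 250 bases before the annotated start, read 5′ to 3′ along the gene. Capitals mark the GC box GGGCGG on either strand in SLC2A1 and TKT, and the hypoxia response core, ACGTG or GCGTG on either strand, in LDHA. The SLC2A1 stretch is chr1:42958869-42959118 on the minus strand, that of TKT is chr3:53256023-53256272 on the minus strand, and that of LDHA is chr11:18394313-18394562 on the plus strand.
SLC2A1: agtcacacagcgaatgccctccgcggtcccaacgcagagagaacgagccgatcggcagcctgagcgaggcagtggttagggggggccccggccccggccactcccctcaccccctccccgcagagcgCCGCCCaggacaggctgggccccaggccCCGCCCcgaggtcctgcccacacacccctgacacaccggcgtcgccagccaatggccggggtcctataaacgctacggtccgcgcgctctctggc
TKT: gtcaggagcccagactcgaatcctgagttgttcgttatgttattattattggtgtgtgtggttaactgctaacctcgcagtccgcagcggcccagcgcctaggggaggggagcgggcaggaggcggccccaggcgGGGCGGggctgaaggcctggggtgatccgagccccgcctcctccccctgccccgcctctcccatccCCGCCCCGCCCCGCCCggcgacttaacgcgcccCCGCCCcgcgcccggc
LDHA: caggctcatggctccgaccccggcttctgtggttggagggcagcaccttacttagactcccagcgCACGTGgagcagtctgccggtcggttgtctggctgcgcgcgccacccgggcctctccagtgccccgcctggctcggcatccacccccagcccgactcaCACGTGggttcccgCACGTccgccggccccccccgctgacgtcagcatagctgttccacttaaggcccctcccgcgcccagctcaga

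The SLC2A1 promoter held 2 GC boxes, the TKT promoter held 5, some overlapping, and neither held a hypoxia response core in this window. SLC2A1 and TKT have 1 promoter listed each and LDHA has 2. The LDHA promoter shown is the first listed that holds the hypoxia response core, with 5 matches in 3 stretches and 0 GC boxes, and the other one, not shown, holds GC boxes. The table held promoters for 34 of the 37 genes, and SLC16A1, SLC2A3 and PFKFB2 had no entry. Many genes have several promoters listed, so shares are given first per promoter. A hypoxia response core lay in 33 of the 64 promoters of these 34 genes (51.6%), in 55.0% of the 13905 promoters of tested genes and in 43.2% of all 35116 promoters. The GC box lay in 43 of the 64 promoters (67.2%), in 63.1% of those of tested genes and in 42.6% of all. The E-box CACGTG, which overlaps the hypoxia response core, lay in 8 of the 64 (12.5%), in 8.0% of those of tested genes and in 6.34% of all. The antioxidant response core TGACNNNGC lay in 6 of the 64 (9.38%), in 11.6% of those of tested genes and in 10.9% of all. Per gene, at least 1 promoter held a hypoxia response core in 25 of 34 genes (73.5%) and in 65.3% of 9452 tested genes. For the GC box these shares were 32 of 34 (94.1%) and 75.3%. The pathway genes have more promoters per gene (64 for 34) than tested genes (13905 for 9452), which by itself can raise a share counted per gene. In the promoter stretches searched, the 9 genes without a hypoxia response core were SLC2A1, TKT, TALDO1, PGLS, PGAM1, PKM, LDHB, PDK4 and PCK2. Sequence outside these stretches was not searched, so the list does not show that these genes lack a core elsewhere. A match of letters is a description of the promoter and not a bound site.

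Glucose enters through the transporters. SLC2A1 (GLUT1, the basal glucose transporter of most cells; ENSG00000117394, chr1:43391024-43424564 on the minus strand, GRCh37) had 181 FPKM in MDA-MB-231 (bounds 131 to 232.) In LM2-4175 it had 95.5 FPKM (bounds 70.0 to 121.) The bounds were 10.2 FPKM apart and the log2 change was -0.92. The bounds allow an LM2-4175 level between 0.302 and 0.922 of that in MDA-MB-231, and the rank of SLC2A1 went from 508 to 992. SLC2A3 (GLUT3, a high-affinity transporter) had 14.7 FPKM in MDA-MB-231 and 11.1 FPKM in LM2-4175, with overlapping bounds. SLC2A1 made up 92.5% of the summed FPKM of both transporters in MDA-MB-231 and 89.5% in LM2-4175. The sum of this pair was 196 FPKM in MDA-MB-231 and 107 FPKM in LM2-4175, a ratio of 0.543, the lowest of the 11 role groups.

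Hexokinase traps glucose in the cell by phosphorylating it. HK1, the ubiquitous isozyme (ENSG00000156515, chr10:71029740-71161640 on the plus strand, GRCh37), had 112 FPKM in MDA-MB-231 (bounds 77.2 to 146.) In LM2-4175 HK1 had 198 FPKM (bounds 135 to 260.) Its log2 change was 0.82, the bounds overlapped by 10.5 FPKM, and HK1 was not called. HK2, the isozyme often induced in tumours, had 16.95 FPKM in MDA-MB-231 and 18.7 FPKM in LM2-4175. HK1 thus provided most of the sum of HK1 and HK2, 86.8% in MDA-MB-231 (78.7% to 91.8% by the bounds) and 91.4% in LM2-4175 (85.5% to 94.7%). That sum leaves out the related gene HKDC1, which had 5.47 FPKM in MDA-MB-231 and 2.14 FPKM in LM2-4175, with overlapping bounds. GPI, which converts glucose 6-phosphate to fructose 6-phosphate, had 205 FPKM in MDA-MB-231 and 152 FPKM in LM2-4175, with a log2 change of -0.42.

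Phosphofructokinase carries out the committed step. Its platelet-type subunit PFKP was the highest, with 208 FPKM in MDA-MB-231 and 160 FPKM in LM2-4175. The liver-type subunit PFKL (ENSG00000141959, chr21:45719934-45747259 on the plus strand, GRCh37) had 61.4 FPKM in MDA-MB-231 (bounds 47.2 to 75.7), and 38.7 FPKM in LM2-4175 (bounds 29.5 to 48.0.) Its log2 change was -0.65 and the bounds overlapped by 0.795 FPKM. The muscle-type subunit PFKM had 33.4 FPKM in MDA-MB-231 and 44.6 FPKM in LM2-4175. Within this step PFKM took 11.0% in MDA-MB-231 and 18.3% in LM2-4175, PFKL 20.3% and 15.9%, and PFKP 68.7% and 65.8%. The ranges that the bounds allow for each of these shares overlapped between the cell lines.

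PFKFB enzymes make and break the fructose bisphosphate that activates phosphofructokinase. PFKFB3, the isoform with the strongest synthetic activity, had 20.4 FPKM in MDA-MB-231 and 28.3 FPKM in LM2-4175. PFKFB4 had 12.03 FPKM in MDA-MB-231 and 13.6 FPKM in LM2-4175, and PFKFB2, the heart isoform, had 4.29 FPKM and 4.75 FPKM. All 3 values were higher in LM2-4175, by log2 changes of 0.12 to 0.45, and 0 of the 3 genes were called. Their sum was 36.8 FPKM in MDA-MB-231 and 46.7 FPKM in LM2-4175.

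The enzymes of lower glycolysis, from aldolase to pyruvate kinase, were among the most abundant transcripts. GAPDH, which oxidizes glyceraldehyde 3-phosphate (ENSG00000111640, chr12:6643678-6647540 on the plus strand, GRCh37), had 3301 FPKM in MDA-MB-231 (bounds 2316 to 4286.) In LM2-4175 GAPDH had 2814 FPKM (bounds 2005 to 3622), and it ranked 9 among MDA-MB-231 genes and 13 among LM2-4175 genes. The enolase ENO1 had 2211 FPKM in MDA-MB-231 and 1639 FPKM in LM2-4175. The aldolase ALDOA had 1236 FPKM in MDA-MB-231 and 895 FPKM in LM2-4175. In GENCODE 44, 54.2% of its exon bases overlap exons of other genes, but in the deposited table ALDOA shares its position with no other gene. TPI1, which interconverts the triose phosphates, had 781 FPKM in MDA-MB-231 and 594 FPKM in LM2-4175. The mutase PGAM1 had 393 FPKM in MDA-MB-231 and 297 FPKM in LM2-4175. The log2 change was -0.23 for GAPDH and lay between -0.47 and -0.39 for ENO1, ALDOA, TPI1 and PGAM1, below the fold of 1.5, and the bounds of each overlapped.

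PGK1, which makes ATP from bisphosphoglycerate, and PKM, the pyruvate kinase gene, were nearly level. PGK1 had 616 FPKM in MDA-MB-231 and 593 FPKM in LM2-4175. PKM had 1418 FPKM in MDA-MB-231 and 1415 FPKM in LM2-4175, with rank 47 in both. The neuronal-type enolase ENO2 had 65.7 FPKM in MDA-MB-231 and 60.0 FPKM in LM2-4175. The aldolase ALDOC had 10.2 FPKM in MDA-MB-231 (bounds 0 to 35.2), and 21.7 FPKM in LM2-4175 (bounds 0 to 54.8.) The change of ALDOC, 1.02 on the log2 scale, had the largest size among the 36 genes and also very wide bounds. The merged position of ALDOC in the deposited table holds 15 genes, ALDOC included. Of the 9 genes in lower glycolysis 8 were lower in LM2-4175 and 0 were called, though PGK1 and PKM were higher when the FPKM of both cell lines were scaled to the same sum (TPM), and PKM also when changes were centred on the median of all genes. The sum of these genes was 10032 FPKM in MDA-MB-231 and 8328 FPKM in LM2-4175.

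**Figure D2:**
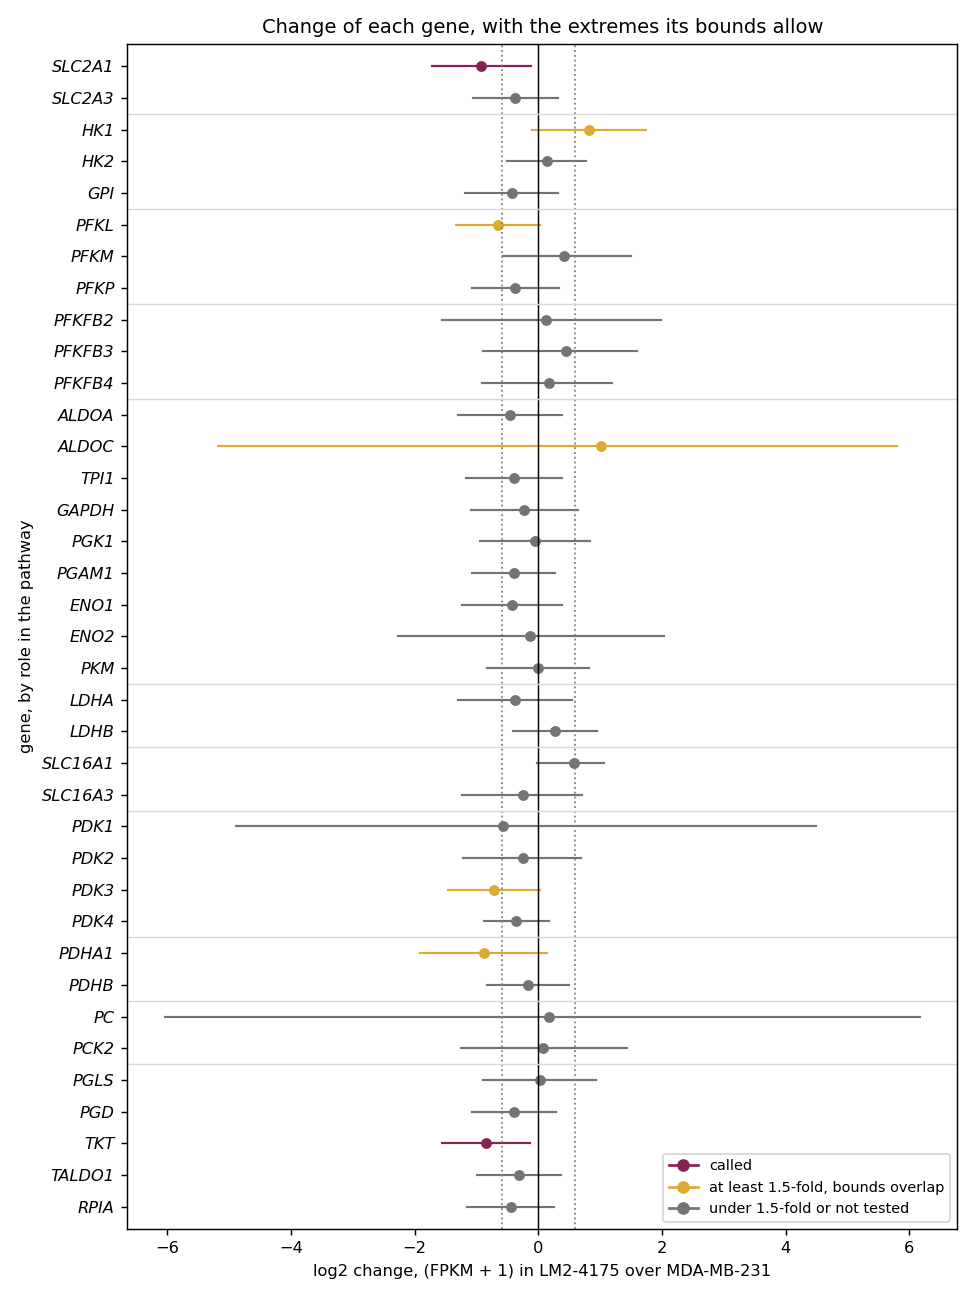
Change of each of the 37 genes as the log2 ratio of FPKM + 1 in LM2-4175 over MDA-MB-231, with lines to the lowest and highest ratios that the bounds allow and dotted lines at 1.5-fold. The lines of SLC2A1 and TKT (purple) stay below 0, and those of HK1, PFKL, ALDOC, PDK3 and PDHA1 (yellow) cross it.

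Because GAPDH was the reference gene of the study's quantitative PCR, its primers are shown with their place in the gene. Capitals are not used in them because they matched without mismatch.
GAPDH sense: agccacatcgctcagacac
GAPDH antisense: gcccaatacgaccaaatcc
On GRCh37 the sense primer lies at chr12:6643979-6643997 in exon 2 of 9, and the antisense primer spans the junction of exons 2 and 3, between 6644026 and 6645676. Together they frame 66 bases and matched 7 transcripts of GAPDH and of no other gene. Processed copies of GAPDH are many in the genome, and the table listed 58 of them, with sums of 0.554 FPKM in MDA-MB-231 and 0.434 FPKM in LM2-4175. Against the gene itself these levels were very low.

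Lactate dehydrogenase is a tetramer of LDHA and LDHB subunits, of which LDHA favours lactate formation. LDHA (ENSG00000134333, chr11:18416107-18429972 on the plus strand, GRCh37) had 2091 FPKM in MDA-MB-231 (bounds 1439 to 2743.) In LM2-4175 it had 1609 FPKM (bounds 1120 to 2099.) LDHB had 479 FPKM in MDA-MB-231 (bounds 368 to 590), and 578 FPKM in LM2-4175 (bounds 445 to 712.) The log2 changes were -0.38 for LDHA and 0.27 for LDHB, and neither gene was called. The ratio of LDHA to LDHB was 4.36 in MDA-MB-231 (2.44 to 7.44 by the bounds) and 2.78 in LM2-4175 (1.57 to 4.72), so these ranges overlapped. For LDHB, 33.4% of the exon bases overlap exons of other genes in GENCODE 44, a later release than the GENCODE 19 behind the FPKM.

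Among the 37 genes, lactate export was represented almost wholly by SLC16A3 (MCT4, the exporter of glycolytic cells). It had 168 FPKM in MDA-MB-231 and 141 FPKM in LM2-4175, with overlapping bounds, and made up 99.9% and 99.5% of the sum with SLC16A1. That sum leaves out SLC16A7, which had 3.83 FPKM in MDA-MB-231 and 11.8 FPKM in LM2-4175. SLC16A1 (MCT1, which also imports lactate) had 0.131 FPKM in MDA-MB-231 (bounds 0 to 0.301), and 0.682 FPKM in LM2-4175 (bounds 0.278 to 1.08.) These levels lay at the edge of detection in the table, and no change was assigned to SLC16A1.

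**Figure D3:**
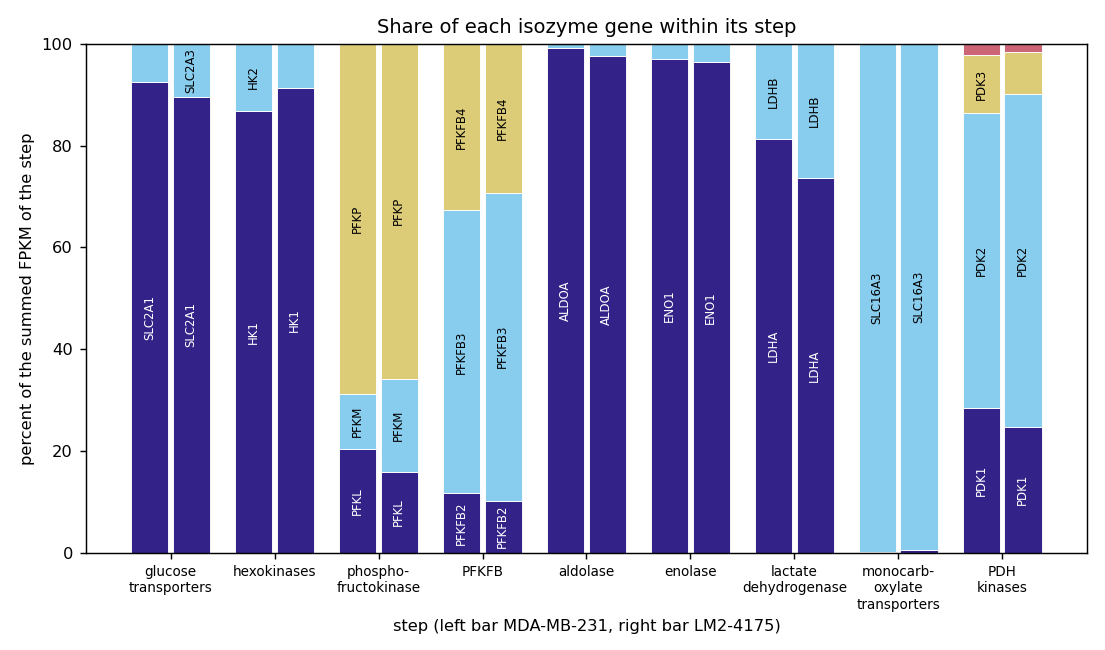
Percent of the summed FPKM that each gene takes within its step, for the 9 steps with more than 1 gene, with MDA-MB-231 on the left and LM2-4175 on the right of each pair of bars. LDHA takes 81.4% in MDA-MB-231 against 73.6% in LM2-4175. By FPKM the leading gene of each step is the same in both cell lines. For the PFKFB enzymes and the PDH kinases, the bounds do not settle which gene leads.

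At the entry to mitochondria, all 4 PDH kinases were listed lower in LM2-4175 and 0 were called. PDK2 was the highest, with 23.9 FPKM in MDA-MB-231 and 19.9 FPKM in LM2-4175, and 38.6% of its exon bases overlap exons of other genes. PDK1, the kinase known to be induced by hypoxia, had 11.7 FPKM in MDA-MB-231 and 7.53 FPKM in LM2-4175, with lower bounds of 0 in both. PDK3 (ENSG00000067992, chrX:24483361-24568583 on the plus strand, GRCh37) had 4.72 FPKM in MDA-MB-231 (bounds 3.26 to 6.18), and 2.48 FPKM in LM2-4175 (bounds 1.60 to 3.36.) Its log2 change was -0.72, and the bounds overlapped by 0.0945 FPKM, so PDK3 narrowly missed the rule. PDK4, a kinase raised in fasting, had 0.923 FPKM in MDA-MB-231 (bounds 0.562 to 1.28), and 0.50 FPKM in LM2-4175 (bounds 0.238 to 0.761.) By the ratio of FPKM, PDK1 (1.56-fold) and PDK4 (1.85-fold) also passed 1.5, but not on the scale of FPKM + 1, and their bounds overlapped. The sum of the 4 kinases was 41.3 FPKM in MDA-MB-231 and 30.4 FPKM in LM2-4175.

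Their substrate, the catalytic E1 part of pyruvate dehydrogenase, was also listed lower. PDHA1, its alpha subunit (ENSG00000131828, chrX:19362011-19379836 on the plus strand, GRCh37), had 186 FPKM in MDA-MB-231 (bounds 123 to 249.) In LM2-4175 PDHA1 had 100.2 FPKM (bounds 65.2 to 135), and the log2 change was -0.89. The bounds overlapped by 12.1 FPKM, and 19.3% of the exon bases of PDHA1 overlap exons of another gene. PDHB, the beta subunit, had 104 FPKM in MDA-MB-231 and 92.2 FPKM in LM2-4175. Pyruvate carboxylase, PC, which makes oxaloacetate, had 31.0 FPKM in MDA-MB-231 and 35.0 FPKM in LM2-4175, with lower bounds of 0. PCK2, the mitochondrial enzyme that turns oxaloacetate into phosphoenolpyruvate, had 8.92 FPKM in MDA-MB-231 and 9.47 FPKM in LM2-4175.

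In the pentose phosphate pathway TKT fell and the other genes were not called. TKT, transketolase of the non-oxidative branch (ENSG00000163931, chr3:53258728-53290068 on the minus strand, GRCh37), had 430 FPKM in MDA-MB-231 (bounds 325 to 534.) In LM2-4175 TKT had 239 FPKM (bounds 181 to 298.) The bounds were 27.5 FPKM apart, the log2 change was -0.84, and the bounds allow a ratio between 0.338 and 0.916. No exon base of TKT overlaps another gene. TALDO1, the transaldolase of the same branch, had 211 FPKM in MDA-MB-231 and 170 FPKM in LM2-4175. PGD, which releases NADPH in the oxidative branch, had 124 FPKM in MDA-MB-231 and 93.8 FPKM in LM2-4175. RPIA, which isomerizes ribose 5-phosphate, had 21.0 FPKM in MDA-MB-231 and 15.2 FPKM in LM2-4175, and the lactonase PGLS had 47.3 FPKM and 48.1 FPKM. The 5 genes summed to 834 FPKM in MDA-MB-231 and 566 FPKM in LM2-4175, a ratio of 0.679.

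The lower values were found mainly among the abundant genes. Of the 18 pathway genes with a mean of at least 100 FPKM, 16 were lower in LM2-4175, with a median log2 change of -0.39. Genes in general at this level also tended to be lower, with 65.3% of 986 genes and a median of -0.13. At this level 2 of the 18 pathway genes (11.1%) were called, against 8.11% of the 986 genes, and of the 7544 genes with at least 10 FPKM 7.54% were called. Between 10 and 100 FPKM, 6 of 13 pathway genes were lower, with a median of 0.02, against 59.8% and -0.09 for 6558 genes. Between 0.5 and 10 FPKM 3 of 5 pathway genes were lower. A difference in level therefore accompanied the difference in direction, and its part in the result was not tested. The total FPKM over the table was 632944 for MDA-MB-231 and 598147 for LM2-4175, and scaling both to the same sum adds 0.08 to each log2 change.

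**Figure D4:**
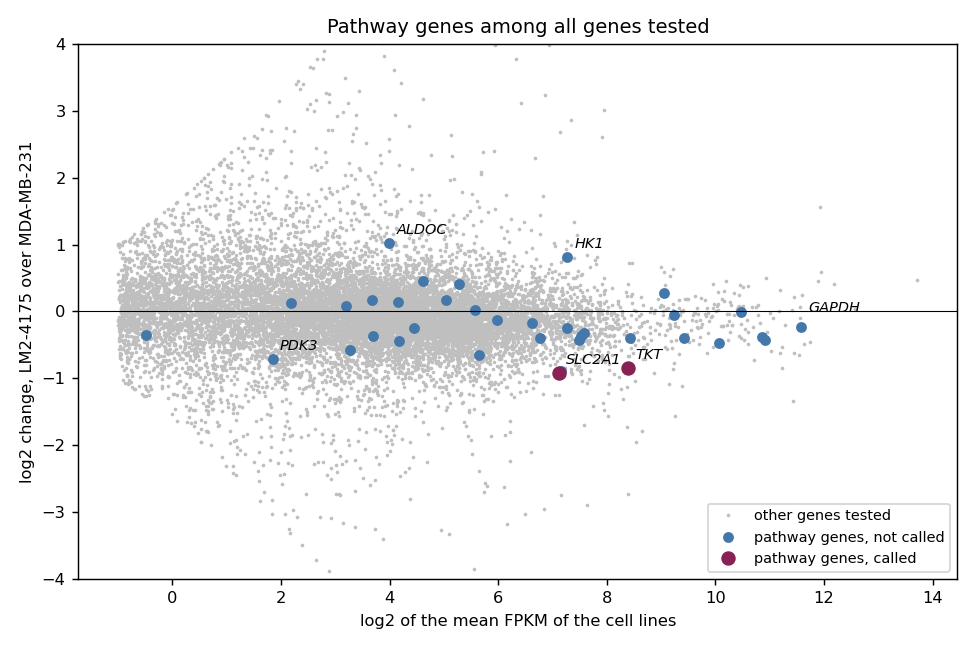
Log2 change in LM2-4175 over MDA-MB-231 against the log2 of the mean FPKM for all 13911 genes tested (grey) and for the 36 pathway genes tested (blue, and purple where called), with 37 genes lying beyond the axis limits of 4. The pathway genes at high level lie mostly below 0, and SLC2A1 and TKT lie lower than the other abundant pathway genes except PDHA1.

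Neighbouring genes were examined for the genes that reached 1.5-fold on the scale of FPKM + 1. Within 3 Mb of SLC2A1, 46 of 76 tested genes were lower, the median log2 change was -0.08 and 7 were called. Within 3 Mb of TKT, 26 of 59 were lower, the median was 0.05 and 2 were called. Over all genes tested 54.5% were lower and 9.27% were called. Lower values were thus in the majority around SLC2A1 and in the minority around TKT. Both medians were nearer to 0 than the changes of SLC2A1 and TKT themselves. Around PDK3 and PDHA1, both on the short arm of the X chromosome, the picture differed. For PDK3 10 of 13 neighbours were lower, with a median of -0.72, and 6 were called. For PDHA1 16 of 19 were lower, with a median of -0.78, and 9 were called. These stretches overlap, so PDK3 and PDHA1 share 4 neighbours. PFKL had 42 lower neighbours of 58 and a median of -0.36, ALDOC 47 of 60 and -0.32, and HK1 12 of 37 and 0.10. Among these neighbours 10 were called for PFKL, 3 for ALDOC and 4 for HK1. The part of chromosome position in these results was not tested.

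Further genes of glucose metabolism and 16 hypoxia markers that are not glycolytic, 98 rows of the table in 9 lists, were examined in the same way. Of the 98 rows 74 were tested, 45 were lower and 29 higher in LM2-4175, with a median log2 change of -0.16. Calls were made for 12 of the 74, 6 lower and 6 higher. Over all 13911 genes tested 9.27% were called, 4.61% lower and 4.67% higher. The further genes, which were chosen with earlier results known, thus had a larger share of calls in each direction. TXNIP, which lowers glucose uptake by acting on glucose transporters and is itself induced by glucose, fell from 72.4 FPKM in MDA-MB-231 to 18.3 FPKM in LM2-4175. The intracellular transporter SLC2A8 fell from 8.21 FPKM to 3.27 FPKM. FBP1, the gluconeogenic enzyme that opposes phosphofructokinase, fell from 41.2 FPKM to 16.2 FPKM. PRPS2, which activates ribose 5-phosphate for nucleotide synthesis, fell from 65.3 FPKM to 22.4 FPKM. The malic enzymes ME1 and ME2, which turn malate into pyruvate, fell from 22.1 FPKM to 12.4 FPKM and from 19.5 FPKM to 7.93 FPKM.

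Of the 10 tested genes in branches that leave or join glycolysis, 6 were lower and 4 higher in LM2-4175. ME1 and ME2 were called lower, and 3 genes were called higher. PHGDH, the first enzyme of serine synthesis from 3-phosphoglycerate, rose from 1.18 FPKM in MDA-MB-231 to 20.5 FPKM in LM2-4175, a log2 change of 3.30. PSAT1, the next enzyme of that branch, rose from 33.7 FPKM to 55.1 FPKM. PSPH, which completes serine synthesis and is named here after its values were seen, had 19.3 FPKM in MDA-MB-231 and 12.2 FPKM in LM2-4175, with a log2 change of -0.62 and overlapping bounds. GFPT2, which starts hexosamine synthesis from fructose 6-phosphate, rose from 23.1 FPKM to 74.4 FPKM. SLC16A7 (MCT2, a high-affinity carrier of lactate and pyruvate) rose from 3.83 FPKM to 11.8 FPKM, still far below SLC16A3. BSG, the chaperone that brings monocarboxylate transporters to the membrane, had 521 FPKM in MDA-MB-231 and 524 FPKM in LM2-4175.

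The glycolytic genes were also set beside the 16 hypoxia markers that are not glycolytic, which are already counted among the further genes. Of the markers 5 were higher and 11 lower in LM2-4175, with a median log2 change of -0.17. VEGFA, the vascular growth factor, rose from 37.1 FPKM to 243 FPKM, and ADM, adrenomedullin, rose from 24.8 FPKM to 56.6 FPKM. They were the called markers, and none was called lower. HIF1A, the oxygen-regulated subunit of hypoxia-inducible factor, had 216 FPKM in MDA-MB-231 and 239 FPKM in LM2-4175, with overlapping bounds. VEGFA and ADM therefore went opposite to SLC2A1, which was called lower.

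**Figure D5:**
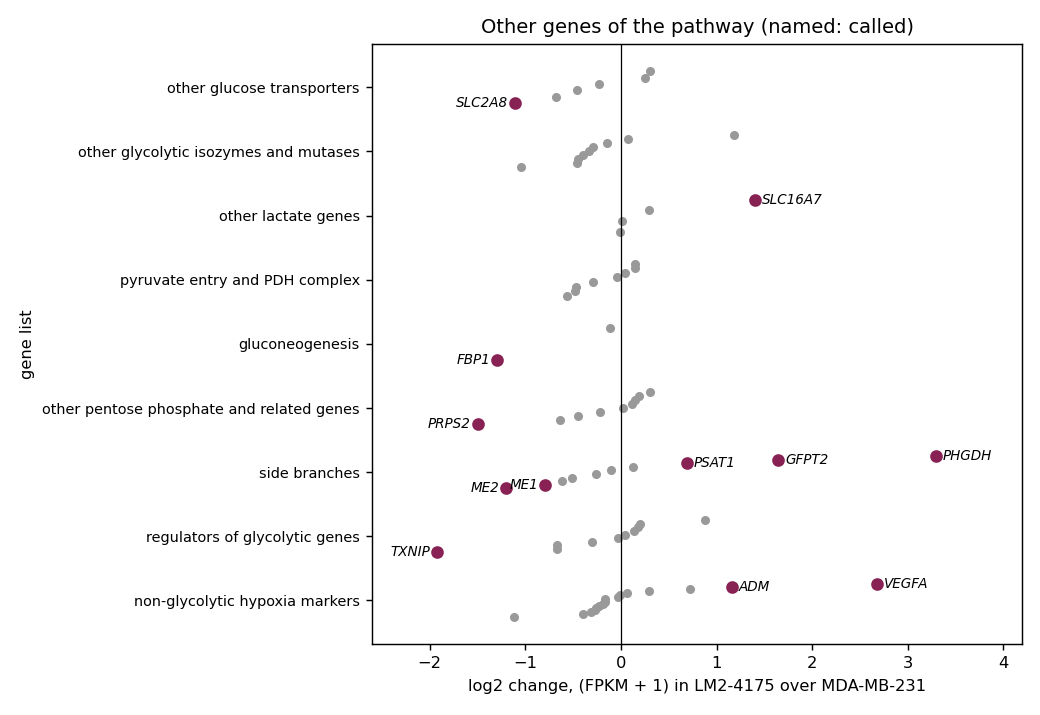
Log2 change, as the ratio of FPKM + 1 in LM2-4175 over MDA-MB-231, of the 74 further rows tested, by list, with the 12 called genes named in purple. SHPK has separate rows for its Ensembl IDs. PHGDH at 3.30 and VEGFA at 2.68 lie farthest to the right, and TXNIP at -1.93 farthest to the left.

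Among other glycolytic isozymes and mutases 7 of 9 tested genes were lower and 0 were called, and among genes of pyruvate entry and the PDH complex 5 of 8 were lower and 0 were called. Other glucose transporters had 4 of 6 tested genes lower, with SLC2A8 as the called gene. Regulators of glycolytic genes had 5 of 10 lower, with TXNIP called. For the cell lines as such, the epithelial keratins KRT8 and KRT18 fell from 626 FPKM to 180 FPKM and from 448 FPKM to 181 FPKM. EPCAM, an epithelial adhesion gene, fell from 12.3 FPKM to 4.93 FPKM. VIM, the mesenchymal filament gene, had 1355 FPKM in MDA-MB-231 and 1768 FPKM in LM2-4175. The hormone receptor genes ESR1 and PGR were at or below 0.0331 FPKM in both cell lines. The receptor gene ERBB2 was expressed, with 35.0 FPKM in MDA-MB-231 and 22.8 FPKM in LM2-4175, a log2 change of -0.60 with overlapping bounds. The cadherin gene CDH1 had 0.851 FPKM in MDA-MB-231 and 0.366 FPKM in LM2-4175, also with overlapping bounds. The part of the epithelial genes in the results was not tested.

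The precision of the values varied among the 37 genes. Over the 36 tested genes, the upper bound lay a median of 30.0% above the FPKM in MDA-MB-231 and 29.3% above it in LM2-4175. The bounds lay within 50% of the FPKM in both cell lines for 30 genes. For 4 genes, ALDOC, PC, PDK1 and SLC16A1, the lower bound was 0 in at least 1 cell line. The table listed 103 processed copies of 14 of the genes, and all of them summed to 5.81 FPKM in MDA-MB-231 and 6.81 FPKM in LM2-4175. The copies of SLC2A3 reached 16.8% and 23.3% of the level of SLC2A3, so its values are uncertain.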

How the data were processed

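RNA-Seq of 2 libraries each of MDA-MB-231 and LM2-4175 was analysed. The authors aligned paired reads of 150 bases to hg19 with TopHat2 and quantified GENCODE 19 genes with Cufflinks and Cuffdiff. The deposited FPKM values, with lower and upper bounds and a status, combine both libraries of a cell line. Use of strand, scaling of library sizes and what the bounds cover are not given in the sources used here. Changes were computed as log2 ratios of FPKM + 1 (Python 3.11.15, pandas 2.3.3, NumPy 2.4.6, Matplotlib 3.10.9). Genes with a mean of at least 0.5 FPKM and status OK were tested, and called at 1.5-fold with bounds apart. The calling was tested on simulated data, in which the bounds were set from the same spread that was put into the values. That test therefore cannot show how the rule performs with differences between libraries or cultures. A fit with limma, planned in case values per library existed, was not run. The pathway genes and lists were chosen with earlier results of these data known.

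All 37 genes are described, with bounds for those called, those past 1.5-fold on the scale of FPKM + 1 and others of note. The further genes named are those called, plus BSG, HIF1A, PSPH and HKDC1, chosen after their values were seen. Positions came from GENCODE 44 on GRCh37, matched by Ensembl ID for 37 of 37 genes, because the table gives merged positions for overlapping genes. Exon overlaps were taken on either strand in GENCODE 44, so they can differ from those in GENCODE 19, on which the FPKM rest. Processed copies were found by symbol, without PCP2 and PCP4, which are genes of their own. Motifs were searched on both strands of RefSeq promoters (GRCh38.p14). No protein sequence was used here.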

Additional observations from a re-analysis of the deposited data

How the results depend on the processing

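The calls of SLC2A1 and TKT, 2 in all, were kept with a pseudocount of 0.1, with no pseudocount, with no filter on low values, with a mean of at least 5 FPKM, with the bounds alone, with TPM scaling and with centring on the median of all genes. With a fold of 2, 0 pathway genes were called, and with the fold alone 7 were called, SLC2A1, TKT, PFKL, PDK3 and PDHA1 lower and HK1 and ALDOC higher. The median change of the pathway genes stayed between -0.34 and -0.21 on the log2 scale under every alternative run for it. The value of -0.34 came from the 30 genes with bounds within 50% of the FPKM, an alternative chosen after seeing the data, as was the comparison with genes of at least 100 FPKM. TPM scaling gave 13 higher and 23 lower pathway genes, and centring gave 12 and 24. Over all genes the calls were 649 higher and 641 lower, 727 and 541 with TPM scaling, and 687 and 578 with centring. Adding processed copies left the log2 ratio of the summed FPKM at -0.28. With upper bounds in place of the FPKM, the shares of all 22 isozyme genes differed between the cell lines in the same direction, and with lower bounds 17 did. With lower bounds the difference was 2.18 percentage points for PFKFB2, -0.71 for PFKFB3 and 0 for ALDOA, ALDOC and PDK1.

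No paired analysis was possible because the table gives 1 pooled value per cell line, and leaving out each replicate could not be run for the same reason. The deposited table gives no depth, the sources used here do not say whether libraries came from separate cultures, and no value carries an error between cultures. Each cell line is a single source, so differences between the cell lines and between these cultures cannot be told apart.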
